A study of Homo sapiens with 16 samples.

Results

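A 12.8 Mb stretch of the long arm of chromosome 16 was followed through bronchial epithelial cells with and without an engineered MET exon 14 deletion. Its members were 167 gene names out of 26368 tested across the arrays. They were chosen by position, as every non-control probe mapped by the array annotation to chr16:67860000-80670000 of the hg19 build that was above background on at least 4 of 16 arrays, with the brightest probe kept for each name. CDH1, CDH3, NQO1 and the LINC names were left out. Apart from these the window held 245 names, the members included, and 78 of them did not pass the brightness filter. The window itself had been picked because genes in it read higher in the edited cells in these same arrays, so the difference between the cell lines is described below without a test, and the HGF responses, which did not choose the window, were tested.

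16HBE is a human bronchial epithelial line immortalised with SV40 large T antigen. 16HBE-WT denotes the parental cells. 16HBE-ex14 denotes 1 clone of the same line, derived with CRISPR/Cas9 cutting at the exon 14 splice site of MET, puromycin selection and limiting dilution, so the deletion and the history of that clone cannot be told apart. All cells were kept without serum for 2 h, and each line was then left unstimulated or given 20 ng/mL HGF, the ligand of MET, for 24 h, which made 4 groups of 4 arrays. The cultures of a group were grown a week apart according to the study. The arrays lay on 2 slides in 2 rows, and each row of each slide held 1 array of every group. The 16HBE-WT arrays with HGF carry a different name in their titles and were placed by their genotype entry. The level given throughout is the log2 processed intensity of a probe minus the 75th percentile of its array, so 0 is the brightness of the 75th percentile probe. It ranks samples for 1 probe and not different genes. That percentile lay between 139.5 and 213.0 intensity units in 16HBE-WT arrays and between 201.8 and 262.8 in 16HBE-ex14 arrays, and the number of arrays limits the precision. EPCAM, KRT8, KRT18 and KRT19 were above background on all 16 arrays, whereas the fibroblast markers COL1A2 and PDGFRA and the endothelial PECAM1 were above it on none. COL1A1, CD3E, PTPRC and CDH5 gave dim signals above background on all 16, at mean levels between -3.25 and -1.58. The basal keratin KRT5 differed by group, at 2.62 in 16HBE-WT and 0.052 in 16HBE-ex14 without HGF. With HGF it was at 1.995 in 16HBE-WT and -2.264 in 16HBE-ex14. The MET probe (level 4.82 to 5.26 over the 16 arrays) lies at the 3′ end of the transcript, outside exon 14, and does not check the edit.

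Genes that neighbour each other on a chromosome arm need not share a function, and this stretch is a mixed one. It carries housekeeping genes of ribosome assembly, splicing and tRNA charging, parts of the proteasome and of vesicle traffic, the telomere proteins TERF2 and TERF2IP, epithelial genes such as the splicing regulator ESRP2 and the tight junction protein MARVELD3, and the large tumour suppressor gene WWOX. The function groups used below were drawn up for this description with earlier results of these data known.

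The members read higher in 16HBE-ex14 than in 16HBE-WT as a group and by a modest amount. The median difference was 0.39 on the log2 scale (1.31-fold), the quartiles lying at 0.11 and 0.65, against -0.010 over all tested genes. It was 0.44 without HGF and 0.35 with HGF. The difference was above 0 for 133 of 167 members (79.6%, against 48.7% of all genes), and 48 members (28.7%) passed 1.5-fold upward and 2 (1.2%) downward, against 6% and 6.61% of all genes. For 55 members every 16HBE-ex14 array lay above every 16HBE-WT array, which held for 5.92% of all genes. No member had all its 16HBE-ex14 arrays below, which held for 4.98% of all genes. These counts describe genes picked on this contrast and are not evidence for it. In bulk RNA of this kind, a change in every cell and a larger change in part of the cells cannot be told apart.

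The shift was seen on every array. With each member centred on its mean over the 16 arrays, the median over members lay between -0.24 and -0.19 in 16HBE-WT, between -0.21 and -0.11 in 16HBE-WT with HGF, between 0.19 and 0.23 in 16HBE-ex14 and between 0.20 and 0.23 in 16HBE-ex14 with HGF. The arrays of the 2 lines did not overlap. Within each row of each slide, where both lines were hybridised side by side, the members' median difference lay between 0.30 and 0.48 in all 8 pairs of arrays, whereas the median of all genes lay between -0.085 and 0.068. Of the members, 75 (44.9%) were higher in 16HBE-ex14 in all 8 pairs, against 14.1% of all genes, and 2 (1.2%) in none, against 11.3%. The size of the shift depended on how background was handled. After normexp background correction the median difference was 0.14 and 57.5% of members were above 0, while the median of all genes moved to -0.13. The 16HBE-ex14 arrays were also brighter as a group before scaling, although the ranges given above overlap. With scaling to the E1A spike-in probes in place of the percentile the median difference was 0.45.

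**Figure D1:**
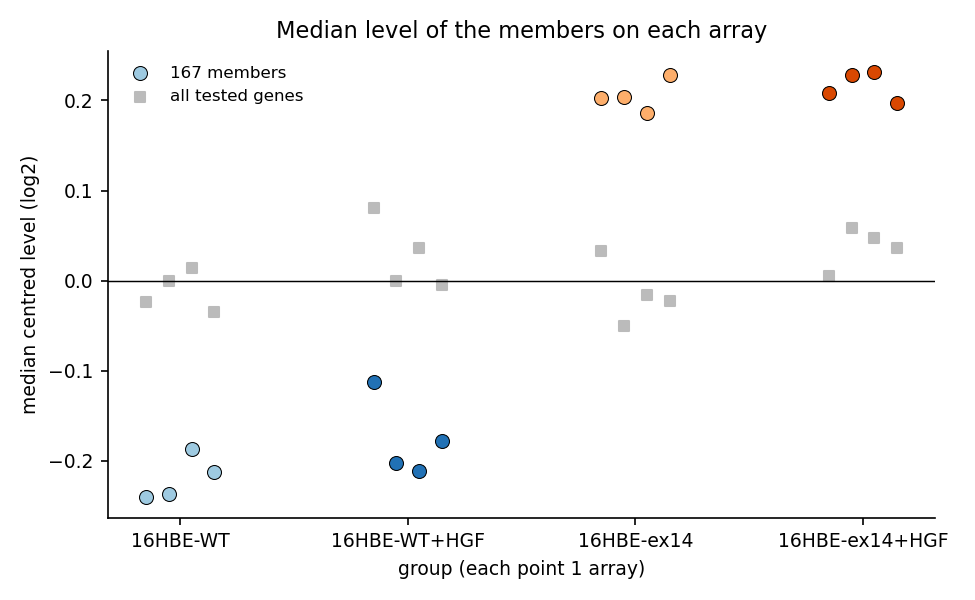
Median over the 167 members (circles) and over all tested genes (squares) of the log2 level centred on each gene's mean, with 1 point per array and the 4 groups on the horizontal axis. The 16HBE-ex14 circles all lie at 0.19 or above and the 16HBE-WT circles at -0.11 or below, while the squares stay near 0 in every group.

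The elevation did not stop at the ends of the window. On 16q below the window the median difference of 205 genes was 0.30, with 51 (24.9%) whose 16HBE-ex14 arrays all lay above and 3 (1.46%) below. Above the window it was 0.29 over 174 genes, with 42 (24.1%) above and 4 (2.30%) below. On 16p it was 0.18 over 649 genes, with 136 (21.0%) above and 10 (1.54%) below. Over the members these shares were 32.9% and 0%, and over all genes 5.92% and 4.98%. Over the autosomes and X, chromosome 16 had the highest median difference, 0.23, followed by chromosome 10 at 0.13, and chromosome 21 had the lowest at -0.18. The members just inside the lower end did not carry the shift, TSNAXIP1 at -0.18 and the kinetochore protein CENPT at -0.088. Just outside it lay RANBP10 at 0.65 and GFOD2 at 0.010. At the upper end the last members were CDYL2 at 3.32 and the non-coding lnc-C16orf61-2, which was not well above background on any 16HBE-WT array, and the next genes outward were lnc-DYNLRB2-1 at -0.24 and CMC2 at 0.62. Split by position into 4 near-equal parts, the members had median differences of 0.39, 0.41, 0.44 and 0.24.

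**Figure D2:**
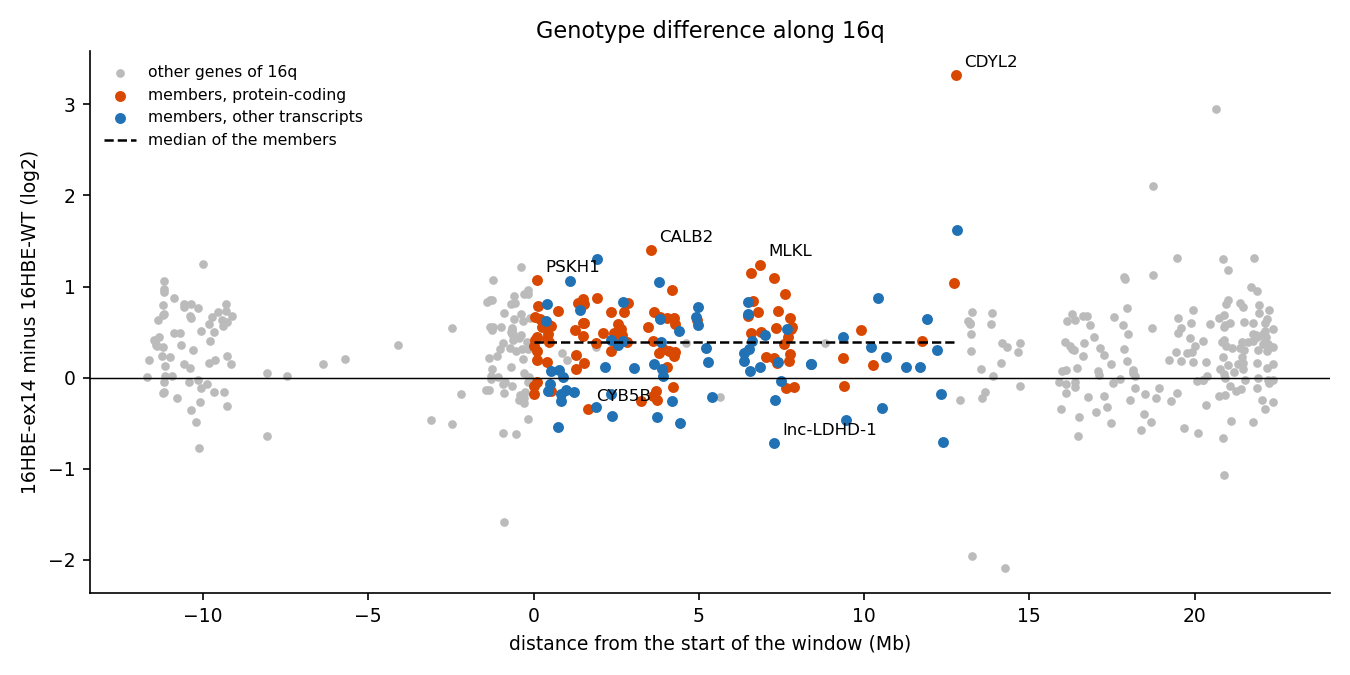
Difference between 16HBE-ex14 and 16HBE-WT (log2, mean of the contrasts without and with HGF) against distance from the start of the window in Mb, with 1 point per gene. Members are coloured by transcript kind, other 16q genes are grey, and the dashed line is the members' median of 0.39. Grey points on both sides also lie mostly above 0, and CDYL2 stands alone at 3.32.

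The shift was larger for protein-coding members and for bright probes. Of the members, 112 were matched to a RefSeq entry and 98 to a protein-coding gene. The median difference was 0.47 over these 98, of which 85 (86.7%) were above 0 and 49 (50%) had all 16HBE-ex14 arrays above, against 52.8% and 8.88% of all tested protein-coding genes. Over the other 69, mostly long non-coding transcripts, it was 0.15, with 48 (69.6%) above 0 and 6 (8.70%) not overlapping, against 43.3% and 1.95% of all other tested names. Split by mean probe level, the dimmest 55 members had a median of 0.16 with 2 (3.64%) not overlapping. The middle 56 had 0.31 with 18 (32.1%), and the brightest 56 had 0.56 with 35 (62.5%), against 5.92% of all genes at any level. The share over genes of like level was not worked out. Over all tested names it also went with level, at 8.88% for protein-coding names (median level 0.78) and 1.95% for the others (median level -2.99). All but 2 of the brightest 56 were above 0. Probe brightness and transcript kind went together, at median levels of 1.01 for protein-coding members and -3.33 for the others, so these splits are not independent. Of the members, 117 were above background on all 16 arrays, 15 were below it on every array of at least 1 group, and none was saturated.

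**Figure D3:**
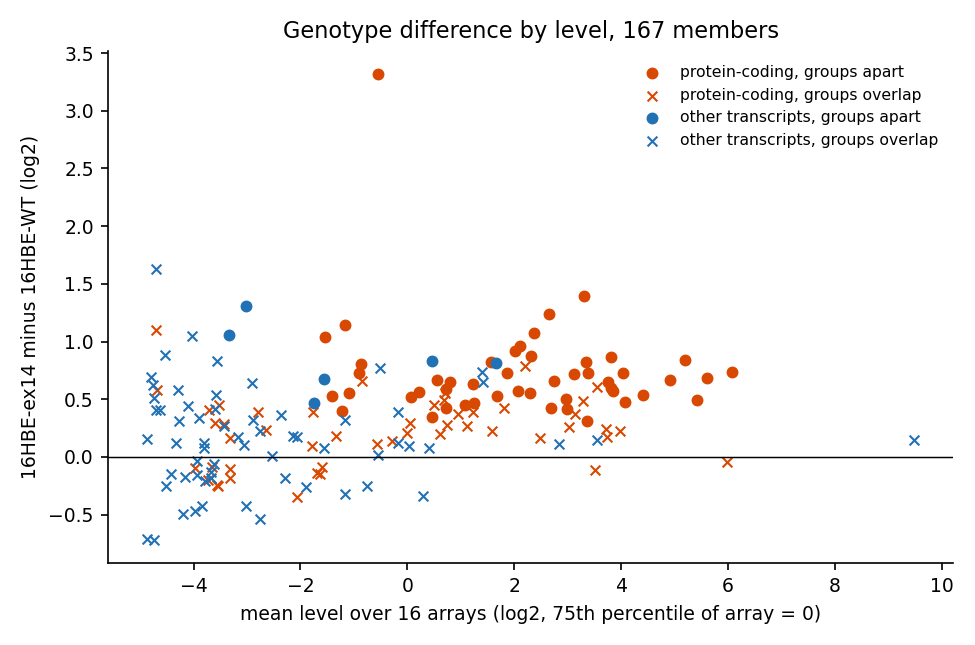
Difference between 16HBE-ex14 and 16HBE-WT (log2) against mean level over the 16 arrays for the 167 members. Circles are members whose 8 arrays of each line do not overlap and crosses are members whose arrays overlap. Circles become frequent with rising level, and most members below 0 are dim.

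CDYL2, a chromodomain protein that reads methylated histone H3, stood apart from all other members (probe at chr16:80631894-80631953). Its level over the 8 16HBE-WT arrays ran from -2.56 to -1.87 with a median of -2.14, and over the 8 16HBE-ex14 arrays from 0.86 to 1.42 with a median of 1.13. The lines were separated by far more than the spread within either. Group means were -2.25 ± 0.23 and 1.01 ± 0.17 without HGF and -2.15 ± 0.26 and 1.22 ± 0.24 with HGF (SD, n = 4), a difference of 3.32 or 9.97-fold. A second probe of the gene gave 2.62, and over the alternative settings the difference of CDYL2 ran from 2.285 to 3.697. Next to it, DYNLRB2, a light chain of the dynein motor, ran from -2.56 to -1.77 in 16HBE-WT and from -1.32 to -0.52 in 16HBE-ex14, a difference of 1.04. The non-coding lnc-C16orf61-2 was not well above background on any 16HBE-WT array and was above it on 7 of 8 16HBE-ex14 arrays. It thus passed the brightness filter through 16HBE-ex14 alone. Its change was bounded as at least 1.27-fold higher without HGF and 1.25-fold with HGF. The lines overlapped, and over the alternative settings its difference ran from -0.0084 to 2.00. Between CDYL2 and DYNLRB2 on one side and WWOX on the other the members were not uniformly raised, since lnc-CDYL2-6 had a difference of -0.71 at a level near background.

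MLKL, the pseudokinase that carries out necroptosis, came after CDYL2 and CALB2 among the protein-coding members. Its 16HBE-WT arrays ran from 1.92 to 2.17 (median 2.05) and its 16HBE-ex14 arrays from 3.0 to 3.61 (median 3.30), with no overlap and a difference of 1.24. CALB2, encoding the calcium-binding protein calretinin, ran from 2.06 to 3.1 in 16HBE-WT and from 3.75 to 4.38 in 16HBE-ex14, a difference of 1.40. PSKH1, a serine kinase, ran from 1.44 to 2.01 and from 2.76 to 3.02, a difference of 1.07. DHODH, the mitochondrial enzyme of pyrimidine synthesis, ran from 1.45 to 1.82 and from 2.26 to 2.85, a difference of 0.96. CLEC18B, a C-type lectin, ran from -1.99 to -1.49 and from -1.04 to -0.018, a difference of 1.15, although it belongs to a family of near-identical copies whose transcripts a probe may not tell apart. The long non-coding lnc-WWP2-1 had a difference of 1.31, which ran from 0.19 to 1.68 over the alternative settings. Its probe overlaps that of NOB1 on the opposite strand. LDHD, D-lactate dehydrogenase, was below background on all 8 16HBE-WT arrays, so it passed the brightness filter through 16HBE-ex14 alone. Its measured difference was 1.10, but with HGF it could be bounded only as at least 1.09-fold higher. The lines overlapped, and over the alternative settings its difference ran from -0.094 to 1.48.

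**Figure D4:**
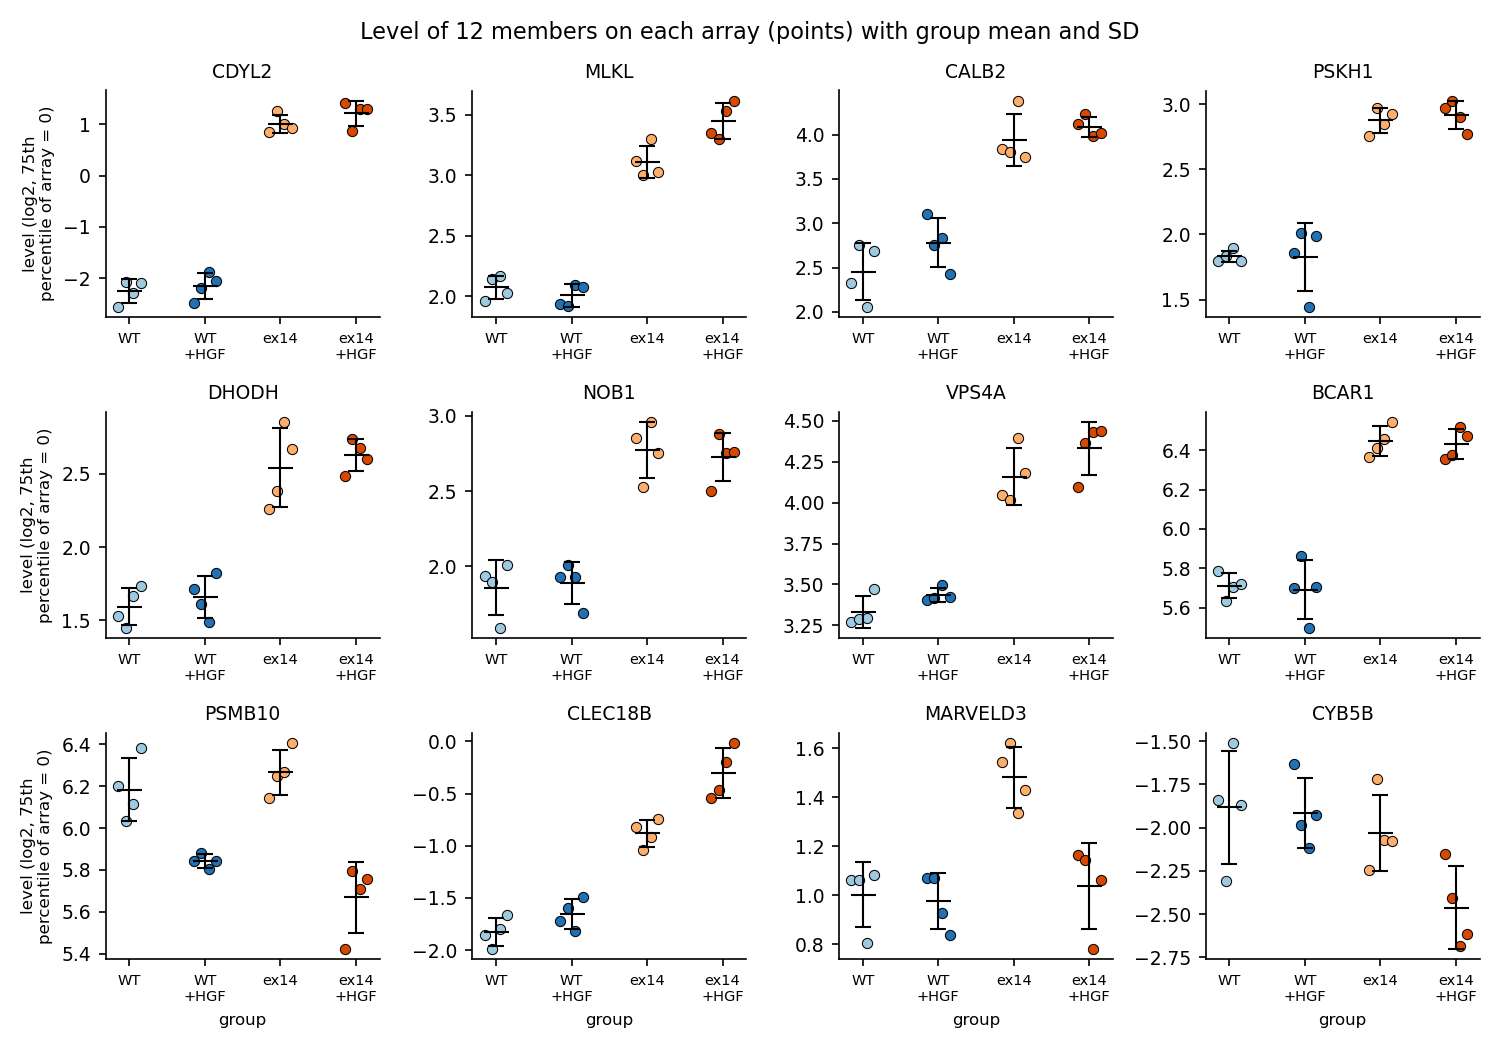
Log2 level of 12 members on each array (points) with the mean and SD of each group of 4, where WT and ex14 stand for 16HBE-WT and 16HBE-ex14. The vertical axes differ between panels. In the upper 8 panels the lines do not overlap, PSMB10 reads lower with HGF in both lines, and CYB5B is lower in 16HBE-ex14 with overlap.

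The sequence before the start of 3 of these genes is shown together with that of PSMB10, a member that did not share the shift and is the one member called for HGF below. The 3 are the members with the largest non-overlapping difference that have a single start in the RefSeq promoter table, and the sequences are the 250 bases before the annotated start in GRCh38.p14, written 5′ to 3′ on the gene's strand. Capitals mark exact matches, on either strand, to GGGCGG (the GC box), to CCGGAAG (an ETS site), to CCAAT (the CCAAT box), to TATAAA (the TATA box) and to GAAANNGAA (the core of an interferon regulatory factor site). The 4 stretches lie at chr16:74700863-74701112 on the minus strand for MLKL, chr16:67893004-67893253 on the plus strand for PSKH1, chr16:72008494-72008743 on the plus strand for DHODH and chr16:67936851-67937100 on the minus strand for PSMB10.
MLKL: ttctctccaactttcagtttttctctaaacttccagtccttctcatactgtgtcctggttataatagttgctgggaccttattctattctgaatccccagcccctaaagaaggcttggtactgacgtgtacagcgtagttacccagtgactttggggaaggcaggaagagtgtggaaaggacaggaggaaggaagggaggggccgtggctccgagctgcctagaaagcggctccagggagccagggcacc
PSKH1: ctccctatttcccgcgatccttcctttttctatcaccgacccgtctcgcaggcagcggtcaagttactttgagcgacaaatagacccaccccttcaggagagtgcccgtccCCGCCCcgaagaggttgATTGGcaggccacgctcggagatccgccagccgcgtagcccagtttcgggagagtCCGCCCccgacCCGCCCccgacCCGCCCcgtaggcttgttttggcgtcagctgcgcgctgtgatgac
DHODH: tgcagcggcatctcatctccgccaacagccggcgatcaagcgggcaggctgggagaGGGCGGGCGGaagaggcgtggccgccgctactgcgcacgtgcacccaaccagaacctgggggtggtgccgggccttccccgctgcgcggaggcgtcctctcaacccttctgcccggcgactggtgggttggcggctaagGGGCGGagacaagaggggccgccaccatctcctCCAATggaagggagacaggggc
PSMB10: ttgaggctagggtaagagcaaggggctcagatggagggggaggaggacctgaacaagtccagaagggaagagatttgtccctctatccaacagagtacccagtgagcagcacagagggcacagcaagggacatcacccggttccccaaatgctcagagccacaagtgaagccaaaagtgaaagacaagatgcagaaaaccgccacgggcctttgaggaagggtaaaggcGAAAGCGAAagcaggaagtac

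The 3 raised genes did not share these letters. PSKH1 held GGGCGG at 4 places and DHODH at 3, of which 2 overlap, each also held 1 CCAAT, and MLKL held none of the 5 motifs in this window. PSMB10 held GAAANNGAA once, 21 bases before the start. Over the 77 protein-coding members with an entry, GGGCGG was present in 55.8% of the 250-base windows, the same share as in all 15843 protein-coding promoters. CCGGAAG was present in 23.4% against 11.8%, CCAAT in 40.3% against 34.5%, TATAAA in 5.2% against 9.4% and GAAANNGAA in 3.9% against 6.1%. The comparison promoters were not matched for expression, and the matches describe letters and not binding.

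The members of RNA processing and ribosome assembly were all above 0 (13 of 13), with a median difference of 0.60 and 8 (61.5%) with non-overlapping lines. Over all tested protein-coding genes 52.8% were above 0 and 8.88% did not overlap. Over the protein-coding members these shares were 86.7% and 50%, and over the brightest 56 members 96.4% and 62.5%. The counts of this and the following groups are to be read beside these shares, and function was not separated from brightness. NOB1, the endonuclease that finishes 18S ribosomal RNA, ran from 1.59 to 2.01 in 16HBE-WT and from 2.50 to 2.96 in 16HBE-ex14, a difference of 0.88. UTP4, a part of the small subunit processome, differed by 0.82 and SF3B3, a subunit of the SF3b splicing complex, by 0.72, and 2 further SF3B3 probes gave 1.29 and 0.67. EDC4, a scaffold of mRNA decapping, differed by 0.67. The smallest differences in the group were those of the export helicase DDX19B at 0.39 and the splicing helicase DHX38 at 0.28, and both lines overlapped for each. Of the 5 genes of tRNA charging and modification and protein methylation, all were above 0 with a median of 0.56. They were the tRNA deaminase ADAT1 at 0.65, the arginine methyltransferase PRMT7 at 0.57, the dihydrouridine synthase DUS2 at 0.56, the lysyl-tRNA synthetase KARS at 0.54 and the alanyl-tRNA synthetase AARS at 0.49. For AARS alone among these 5 the arrays of the lines overlapped.

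Membrane traffic, Golgi and autophagy genes were above 0 in 13 of 13 cases, with a median of 0.47 and 8 (61.5%) not overlapping. VPS4A, the ATPase that recycles the ESCRT machinery, ran from 3.27 to 3.50 in 16HBE-WT and from 4.02 to 4.44 in 16HBE-ex14, a difference of 0.86. GLG1, a Golgi glycoprotein, ran from 4.57 to 4.94 and from 5.36 to 5.73, a difference of 0.84. VAC14, the scaffold of the PIKfyve lipid kinase, differed by 0.82, and its 3 other probes gave values between 0.64 and 0.66. The Golgi tethering subunits COG8 and COG4 differed by 0.60 and 0.47. MON1B, of endosome maturation, at 0.22 and TMED6 at 0.16 were the smallest and overlapped. A dimmer probe of MON1B gave 0.48 with no overlap between the lines. In the proteasome and ubiquitin group 4 of 5 were above 0. The ubiquitin ligase RFWD3 differed by 0.72 and PSMD7, a lid subunit of the proteasome, ran from 5.17 to 5.35 and from 5.77 to 6.09, a difference of 0.68. The ligases WWP2 at 0.49 and ZNRF1 at 0.21 overlapped, and the immunoproteasome subunit PSMB10 had a difference of -0.045. For WWP2 a dimmer probe gave 1.06 with no overlap between the lines.

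All 5 genes of telomere, chromatid cohesion and chromatin were above 0. Besides CDYL2, the telomere-binding TERF2 ran from -1.65 to -1.12 in 16HBE-WT and from -0.70 to -0.25 in 16HBE-ex14, a difference of 0.80, and its partner TERF2IP differed by 0.55. CFDP1 at 0.37 and the cohesion factor CHTF8 at 0.24 overlapped. The 10 transcription factors were all above 0, with a median of 0.49 and 6 (60%) not overlapping. ZFP90 and ZNF19, of the zinc finger family, differed by 0.73 and 0.72 and the co-repressor ATXN1L by 0.66. NFAT5, the factor of the osmotic stress response, at 0.38 and ZNF821 at 0.12 were the smallest. A dimmer probe of ZFP90 gave -0.25 and a near-background probe of ATXN1L gave -0.12.

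The 10 epithelial and signalling genes were all above 0, with a median of 0.42 and 5 (50%) not overlapping. After MLKL and PSKH1 came BCAR1, the focal adhesion scaffold p130Cas, which ran from 5.50 to 5.86 in 16HBE-WT and from 6.36 to 6.54 in 16HBE-ex14, a difference of 0.74. PHLPP2, a phosphatase of AKT, differed by 0.67. Dimmer probes gave 0.34 and 0.33 for BCAR1 and 0.30 for PHLPP2, with overlapping lines for each. MARVELD3 at 0.27, ESRP2 at 0.18, WWOX at 0.14 and the hyaluronan synthase HAS3 at 0.098 overlapped. The differences of MARVELD3 and ESRP2 were 0.48 and 0.31 without HGF and 0.061 and 0.035 with HGF.

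Metabolic, transport and glycan genes were the least uniform group, with 12 of 18 (66.7%) above 0, a median of 0.45 and 7 (38.9%) not overlapping. DHODH and LDHD led it, the latter with overlapping lines. PDPR, a regulatory subunit of pyruvate dehydrogenase phosphatase, followed at 0.72. PDPR has a near-identical copy on the same arm, so its probe may read both. The smallest were TAT, tyrosine aminotransferase, at -0.24 and CYB5B, the outer mitochondrial membrane cytochrome b5, at -0.35. CYB5B ran from -2.31 to -1.51 in 16HBE-WT and from -2.68 to -1.72 in 16HBE-ex14, so the lines overlapped. CHST6, a keratan sulfate sulfotransferase, was the member whose probes differed most. Its brightest probe gave -0.11 and another gave 1.29 with no overlap between the lines.

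The 88 members in no group, mostly non-coding names, had a median of 0.18. Of them 61 (69.3%) were above 0 and 12 (13.6%) did not overlap, against 48.7% and 5.92% of all genes. Among the members that read lower, the largest differences were those of lnc-LDHD-1 at -0.72, lnc-CDYL2-6 at -0.71, lnc-ZFP90-2 at -0.54, lnc-PMFBP1-2 at -0.50, lnc-SYCE1L-1:1 at -0.47 and TAT-AS1 at -0.43. All 6 are non-coding and dim, and the lines overlapped for each. lnc-LDHD-1, whose probe overlaps that of ZNRF1 on the other strand, was above background on 3 of 8 16HBE-WT arrays and 1 of 8 16HBE-ex14 arrays. Another tested probe was present for 28 members, and 30 of 38 such probes had the sign of the brightest. Of the 25 members higher by the brightest probe, 21 were higher by all their other probes, and the median absolute gap between a further probe and the brightest was 0.26.

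HGF changed 1 of the members by the test. In 16HBE-ex14, 1 of 167 passed an adjusted p of 0.05 and 1.5-fold in limma with Benjamini-Hochberg adjustment over all 34600 probes, against 2.11% of all genes. That member was PSMB10, the interferon-inducible catalytic subunit that replaces its constitutive counterpart in the immunoproteasome. Its 16HBE-ex14 arrays read 6.15, 6.25, 6.27 and 6.41 without HGF and 5.42, 5.79, 5.71 and 5.76 with HGF. It fell by 0.60 on the log2 scale (SE 0.10, limma adjusted p = 0.0059), with every HGF array below every unstimulated one. Its 16HBE-WT arrays read 6.20, 6.03, 6.12 and 6.38 without HGF and 5.84, 5.88, 5.80 and 5.84 with HGF, again without overlap. That difference of -0.34 did not pass (SE 0.10, limma adjusted p = 0.87), and the difference between the lines in the HGF response was -0.25 (limma adjusted p = 1.00). The call in 16HBE-ex14 was lost in a fit of the 16HBE-ex14 arrays alone (-0.60, limma adjusted p = 0.066) and without scaling (-0.64, adjusted p = 0.084). Leaving out 16HBE-ex14 with HGF replicate 1 gave -0.51 and leaving out 16HBE-ex14 replicate 4 gave -0.55, which miss the fold limit.

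A pair of members passed the adjusted p in 16HBE-ex14 without reaching 1.5-fold. The share of all genes that did so was not worked out, so this count has no background beside it. CLEC18B read -0.82, -1.04, -0.92 and -0.74 without HGF and -0.54, -0.46, -0.19 and -0.018 with HGF, a change of 0.58 (SE 0.13, limma adjusted p = 0.022). MARVELD3, a transmembrane protein of tight junctions, read 1.54, 1.62, 1.34 and 1.43 without HGF and 1.16, 1.14, 0.78 and 1.06 with HGF, a change of -0.44 (SE 0.11, limma adjusted p = 0.040). The HGF arrays did not overlap the unstimulated ones for either gene in 16HBE-ex14. Over the members, 21 had an unadjusted limma p under 0.05 in 16HBE-ex14, 9 upward and 12 downward (12.6%, against 14.3% of all genes), and the median change was 0.023 against 0.059 over all genes.

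In 16HBE-WT no member passed in limma, as no gene did (0% of all genes), and 8 members had an unadjusted p under 0.05 (4.79%, against 4.71% of all genes). The smallest p-values belonged to HPR, the haptoglobin-related protein, SLC7A6, an amino acid transporter subunit, and PSMB10. HPR changed by 0.78 (SE 0.17, limma adjusted p = 0.58) and SLC7A6 by 0.56 (SE 0.16, limma adjusted p = 0.86), and both are dim probes. No member differed between the lines in its HGF response by limma (0% of all genes), with 6 at an unadjusted p under 0.05 (3.59%, against 4.60% of all genes). SLC7A6 had the smallest of these, at -0.75 (SE 0.22, limma adjusted p = 0.72), followed by MLKL at 0.41 (SE 0.14, limma adjusted p = 0.87) and MARVELD3 at -0.42 (SE 0.15, limma adjusted p = 0.94). MLKL read 3.11 ± 0.13 without HGF and 3.45 ± 0.15 with HGF in 16HBE-ex14, and 2.07 ± 0.10 and 2.00 ± 0.09 in 16HBE-WT (SD, n = 4).

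**Figure D5:**
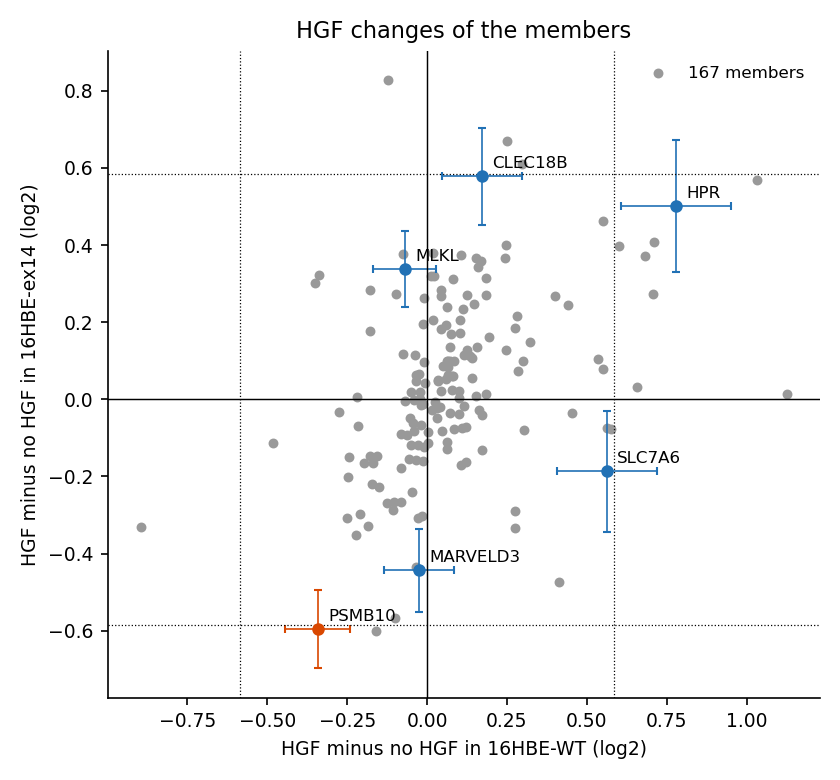
Change with HGF in 16HBE-WT (horizontal axis) and in 16HBE-ex14 (vertical axis) of the 167 members, in log2. Bars on the 6 named genes are limma standard errors, dotted lines mark 1.5-fold and orange marks the 1 member called. Most members lie within the dotted lines in both directions, and PSMB10 lies below 0 on both axes.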

How the data were processed

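RNA from 16 cultures was hybridised to one-colour Agilent 60-mer arrays, 1 array per culture. The authors deposited the Feature Extraction (version 10.7.3.1) output of each array, with processed signal intensity per spot on a linear scale, and a table of all samples holding the same intensity at all 62976 spots. From these, outlier spots were left out, log2 intensity was scaled to the 75th percentile of each array, and spots of a probe were averaged. Probes above background on at least 4 arrays (34600 of 58201) were fitted together in R 4.3.3 with limma 3.58.1, all 4 groups in 1 model and no covariate. No member lost an array to an outlier spot. Calls needed an adjusted p under 0.05 and over 1.5-fold. Named members were the largest and smallest differences of each function group and of all members, those called or with the smallest p for HGF, and those at the ends of the window, and a few others were named after their values were seen. The members and groups were chosen with earlier results of these data known. Replicate numbers follow the order of the deposit, and arrays of the same number shared a slide row, which was taken as a block in an alternative fit. The fit was tested on simulated data. Promoter sequences came from RefSeq (GRCh38.p14), and probe positions are those of the array annotation (hg19). The samples of a group are repeat cultures of 1 line or clone, so p-values measure the spread between these cultures. The alternatives are given in the closing section.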

Additional observations from a re-analysis of the deposited data

Results flagged for a closer look

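Each group of 4 arrays of the 55 named members was examined for an array that stood far from the other 3, by Dixon's ratio of its gap to the group's range above its critical value. Of 220 such groups 17 were picked out, and chance alone picks out about 1 in 20. ADAT1 read 0.70 on 16HBE-WT with HGF replicate 4, against 0.38 to 0.41 on the other 3. ADAT1 read 1.5 on 16HBE-ex14 with HGF replicate 3, against 1.05 to 1.09 on the other 3. KARS read 4.31 on 16HBE-WT replicate 4, against 4.02 to 4.03 on the other 3. VPS4A read 3.47 on 16HBE-WT replicate 4, against 3.27 to 3.29 on the other 3. ZNF19 read -1.46 on 16HBE-WT replicate 4, against -1.15 to -1.11 on the other 3. NFAT5 read 3.34 on 16HBE-WT replicate 3, against 2.80 to 2.89 on the other 3. LDHD read -5.22 on 16HBE-WT replicate 1, against -5.46 to -5.42 on the other 3. lnc-C16orf61-2 read -4.49 on 16HBE-WT with HGF replicate 1, against -5.80 to -5.63 on the other 3. CALB2 read 4.38 on 16HBE-ex14 replicate 3, against 3.75 to 3.83 on the other 3. lnc-WWP2-1 read -1.96 on 16HBE-ex14 with HGF replicate 2, against -2.60 to -2.50 on the other 3. lnc-LDHD-1 read -3.45 on 16HBE-WT replicate 3, against -4.49 to -4.43 on the other 3. lnc-LDHD-1 read -4.56 on 16HBE-ex14 with HGF replicate 1, against -5.13 to -5.03 on the other 3. lnc-ZFP90-2 read -2.81 on 16HBE-WT with HGF replicate 3, against -2.31 to -2.25 on the other 3. lnc-ZFP90-2 read -3.62 on 16HBE-ex14 with HGF replicate 4, against -2.98 to -2.89 on the other 3. MARVELD3 read 0.80 on 16HBE-WT replicate 3, against 1.06 to 1.08 on the other 3. TSNAXIP1 read -4.33 on 16HBE-WT with HGF replicate 2, against -2.88 to -2.66 on the other 3. CENPT read -1.29 on 16HBE-ex14 with HGF replicate 3, against -1.99 to -1.93 on the other 3.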

How the results depend on the processing

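The number of members whose 16HBE-ex14 arrays all lay above their 16HBE-WT arrays stayed between 47 and 67 over the settings tried, and between 55 and 58 when 1 array was left out. The number lying below was 3 with normexp background correction, 1 with scaling to the E1A spike-ins, 18 without a filter on dim probes (245 names) and 0 to 1 with 1 array left out. The shares of all genes lying above or below were not worked out for these settings, so these counts have no background beside them. The members' median difference was 0.14 with normexp, 0.51 with scaling to the array median, 0.77 without scaling, 0.45 with the spike-ins and 0.16 without the filter, and 0.37 to 0.40 with 1 array left out. The median of all genes moved too, to -0.13, 0.11, 0.37, 0.051 and -0.13. Minus it, the members' median of 0.40 fell to 0.27 with normexp and 0.30 without the filter, stayed within 0.39 to 0.41 under the other settings, and ran from 0.37 to 0.41 with 1 array left out (an added measure, chosen after seeing the data). The count of members called for HGF in 16HBE-ex14 was 0 without scaling, 3 without a fold limit and 1 to 2 with 1 array left out, CLEC18B being the added one. The shares of all genes called in these settings were not worked out. With 16HBE-ex14 with HGF replicate 1 or 16HBE-ex14 replicate 4 left out, CLEC18B was called in place of PSMB10, and in a fit of the 16HBE-ex14 arrays alone the unnamed transcript XLOC_l2_005553 was. HGF in 16HBE-WT and the difference of the HGF responses gave 0 members in every setting, slide or slide and row as a block included. No named member whose lines did not overlap changed its direction. Some whose lines overlapped did, LDHD and lnc-C16orf61-2 among them. The cause of the dependence on background handling was not tested. Arrays of the same number in different groups shared a slide row. Their deviations from the group means correlated at 0.049 to 0.344 over genes, with a median of 0.218 (24 pairs of arrays, 22 of them over 0.1). Arrays of different groups in different rows correlated at -0.373 to 0.411, with a median of -0.14 (72 pairs, 20 of them over 0.1). Only 3 of 16 arrays correlated best with their own row. With slide and row as a replicate block, PSMB10 stayed the 1 member called for HGF in 16HBE-ex14, and 586 in place of 557 of all genes were called.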
